A study of Homo sapiens with 3 samples.

Results

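Integrins are the cell-surface receptors for the extracellular matrix, and laminins are the largest family of matrix proteins they bind in basement membranes. The genes of 25 integrin subunits and 10 laminin chains, 35 of the 19699 genes named on the array, were chosen by name, and all 35 matched probes (45 probes in all). They were measured in PANC-1, an established human pancreatic ductal carcinoma line that grows attached to its culture surface. The study hybridised 3 1-colour Agilent expression arrays: 1 of control PANC-1 cells with no agent named, 1 of cells given cantharidin and 1 of cells given okadaic acid. The sample labels give 20 µM for each agent, while the treatment text, which gives 24 h, can also be read as giving that dose for cantharidin alone, so the okadaic acid dose is less certain. Cantharidin, a toxin of blister beetles, and okadaic acid, a toxin of marine dinoflagellates, are both inhibitors of serine/threonine protein phosphatases, above all protein phosphatase 2A. Every group is 1 RNA sample of 1 cell line on 1 array, so no difference has a replicate check and no p-value is given.

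Each integrin is a pair of 1 alpha and 1 beta subunit, and the pair decides the ligand: alpha 3, 6 and 7 with beta 1, or alpha 6 with beta 4, bind laminin, alpha 1, 2, 10 and 11 with beta 1 bind collagen, and alpha 5 and alpha V integrins bind fibronectin and vitronectin through an RGD motif. Each laminin is a trimer of 1 alpha, 1 beta and 1 gamma chain that is assembled inside the cell and secreted into the basement membrane. In epithelia, the pair of alpha 6 and beta 4 is the integrin of hemidesmosomes, the junctions that tie keratin filaments to the epithelial laminin that holds the alpha 3 and beta 3 chains. Inside the cell, integrin tails bind talin, kindlin and the other proteins of focal adhesions.

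Values are given as scaled intensity, the brightness of a probe after each array was divided by its 75th percentile and set back on the level of the control array, so that the ratio of 2 values of a probe is their fold difference. Probes differ in how they bind, so levels are compared between arrays and not between genes. Sums over markers add signals of different probes, and they too are compared only between arrays. A marker said to weigh most in a sum had the brightest signal, which does not rank its RNA level. A gene is called higher or lower where it differed at least 1.5-fold, the threshold of the study. A signal that the scanner software did not call well above background gives only a bound, printed as at least N-fold, while calls were made on the measured signals. The bound used whichever was brighter, the dim signal itself or the faintest signal that passed on that array, which was 35.0, 24.1 and 48.6 in scaled intensity for control, cantharidin and okadaic acid. On probes spotted several times, 1 SD of the difference between 2 spots of an array was 1.11-fold in control. It was 1.20-fold with cantharidin and 1.12-fold with okadaic acid. This covers the spots and not the cells. All 3 arrays lay on 1 slide, and the position on the slide cannot be told apart from the treatment.

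The cell type was checked against its markers. Of 7 epithelial and PANC-1 markers, 6 were well above background on all 3 arrays, with a summed scaled intensity of 458169 in control, 516127 under cantharidin and 423782 under okadaic acid. VIM, at 311685 in control, weighed most in this sum. The 7 markers did not share a direction: 1 was higher and 3 lower under cantharidin, 2 higher and 4 lower under okadaic acid. Among all genes compared, 27.5% were higher and 34.1% lower on the cantharidin array. For the okadaic acid array the shares were 28.1% higher and 28.8% lower. A set of 7 markers is too small to tell apart from such a background. EPCAM was 3.42-fold and 2.20-fold lower, KRT8 2.25-fold lower under cantharidin, and KRT18 1.99-fold and 2.29-fold higher. Under okadaic acid, KRT19 was 2.59-fold higher, KRT7 1.67-fold lower and VIM 1.57-fold lower. CDH1 (E-cadherin) was above background in the control array only. Markers of other cells were measured because several integrins are named for them. Of 8 leukocyte markers 5, of 4 platelet markers 3, of 5 endothelial markers 3 and of 5 fibroblast markers 1 were well above background on all arrays. Sums over markers include signals not well above background and weigh bright probes most. In bulk RNA, fewer cells of a type and less RNA per cell cannot be told apart.

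For 25 of the 35 genes, RefSeq (GRCh38.p14) gave a promoter sequence. The 250 bases before the start of 6 of them are shown because they belong to the genes on which the results below turn: LAMB1, LAMC1, LAMA5 and ITGB1, lower under both agents, LAMB3, higher under both, and ITGA2, which moved in opposite directions. Capitals mark a GC box, the letters GGGCGG bound by the transcription factor Sp1, on either strand (printed as CCGCCC where it lies on the other strand), and in ITGB1 also the letters GGAATG of the TEAD factors. Sequences run 5′ to 3′ on the strand of the gene. ITGB1 has 2 and LAMB3 has 3 listed starts, and the first is shown.
LAMB1 (chr7:108003162-108003411, minus strand): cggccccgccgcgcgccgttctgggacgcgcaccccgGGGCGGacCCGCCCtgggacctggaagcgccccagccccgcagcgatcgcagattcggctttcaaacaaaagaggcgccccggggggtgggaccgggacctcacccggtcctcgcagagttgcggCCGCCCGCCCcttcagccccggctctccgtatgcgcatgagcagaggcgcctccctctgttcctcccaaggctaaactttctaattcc
LAMC1 (chr1:183023170-183023419, plus strand): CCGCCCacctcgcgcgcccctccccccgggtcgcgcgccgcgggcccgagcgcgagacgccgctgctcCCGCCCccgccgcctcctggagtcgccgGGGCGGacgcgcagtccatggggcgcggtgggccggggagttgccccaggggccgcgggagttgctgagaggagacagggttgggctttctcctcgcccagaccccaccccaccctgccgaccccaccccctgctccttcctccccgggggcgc
LAMA5 (chr20:62367313-62367562, minus strand): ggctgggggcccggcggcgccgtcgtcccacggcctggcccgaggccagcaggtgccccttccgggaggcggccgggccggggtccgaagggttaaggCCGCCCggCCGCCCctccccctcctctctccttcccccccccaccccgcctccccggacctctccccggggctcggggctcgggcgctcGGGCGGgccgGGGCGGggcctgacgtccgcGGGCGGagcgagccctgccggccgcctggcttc
ITGB1 (chr10:32958231-32958480, minus strand): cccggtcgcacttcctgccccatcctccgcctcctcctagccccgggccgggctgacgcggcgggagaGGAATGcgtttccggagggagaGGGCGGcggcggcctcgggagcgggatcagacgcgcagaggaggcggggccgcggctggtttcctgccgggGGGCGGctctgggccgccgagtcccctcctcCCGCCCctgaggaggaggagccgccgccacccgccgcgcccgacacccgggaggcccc
LAMB3 (chr1:209652426-209652675, minus strand): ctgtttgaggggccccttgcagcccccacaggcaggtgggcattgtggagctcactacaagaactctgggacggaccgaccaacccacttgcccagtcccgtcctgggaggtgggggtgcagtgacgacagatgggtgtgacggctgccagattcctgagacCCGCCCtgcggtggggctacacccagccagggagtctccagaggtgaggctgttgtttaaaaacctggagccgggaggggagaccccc
ITGA2 (chr5:52989102-52989351, plus strand): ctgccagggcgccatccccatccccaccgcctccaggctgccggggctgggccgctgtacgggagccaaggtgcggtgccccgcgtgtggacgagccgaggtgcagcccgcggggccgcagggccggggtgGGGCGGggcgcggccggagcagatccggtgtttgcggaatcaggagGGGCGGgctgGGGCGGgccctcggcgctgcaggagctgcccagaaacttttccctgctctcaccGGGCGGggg

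A GC box was present in all 6: LAMB1 held 4, 2 of which overlap, LAMC1 3, LAMA5 5, ITGB1 3, LAMB3 1 and ITGA2 4. Of the 25 genes with a promoter, 13 (52.0%) held a GC box in this window, against 60.0% of the 13121 genes well above background on an array and 42.3% of all 27305 promoters. The AP-1 letters TGANTCA were found in 1 of the 25, LAMA3, with 2 matches. They were found in 4.74% of the genes well above background on an array and 6.60% of all promoters. The TEAD letters were found in 4 of the 25 (ITGA10, ITGA5, ITGB1 and LAMA2), against 9.84% of the genes well above background and 11.9% of all promoters. All 3 motifs were searched on both strands. Among the genes lower under cantharidin, 10 of 16 with a promoter held a GC box, and among those higher 1 of 2 did. Under okadaic acid the counts were 9 of 13 and 2 of 4. A match is a description of these letters and not a site shown to be bound.

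More integrin and laminin genes were lower than higher after either agent. Of the 31 genes whose signal passed on 1 or both of the arrays compared, 19 (61.3%) were lower and 5 higher under cantharidin, where 34.1% of all genes compared were lower and 27.5% higher. Under okadaic acid, 17 of 31 (54.8%) were lower and 6 higher, against 28.8% and 28.1% of all genes. By the bounds, the member counts were the same, and the shares of all genes were 34% lower and 26.3% higher under cantharidin and 27% and 28% under okadaic acid. Lower genes outnumbered higher ones under every alternative run, but their number ranged over those alternatives, between 13 and 21 for cantharidin and between 9 and 20 for okadaic acid, and with normexp background correction it was 15 for each agent. The median log2 difference of the 31 was -0.73 under cantharidin and -0.60 under okadaic acid, beside -0.16 and 0.01 over all genes. The call against control changed under at least 1 other way of processing for ITGA1, ITGA2, ITGA4, ITGA5, ITGA9, ITGAM, ITGB4 and LAMA3 under cantharidin, and for ITGA1, ITGA4, ITGA6, ITGA9, ITGAV, ITGAM, ITGB2, LAMA3 and LAMA4 under okadaic acid. The 2 comparisons share the control array, so a high or low control signal enters both. Directly between the agents, 8 of 30 genes were higher and 9 lower under okadaic acid than under cantharidin, against 29.5% and 22.3% of all genes (29.5% and 20.5% by the bounds), with a median of 0.07 beside 0.13.

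**Figure D1:**
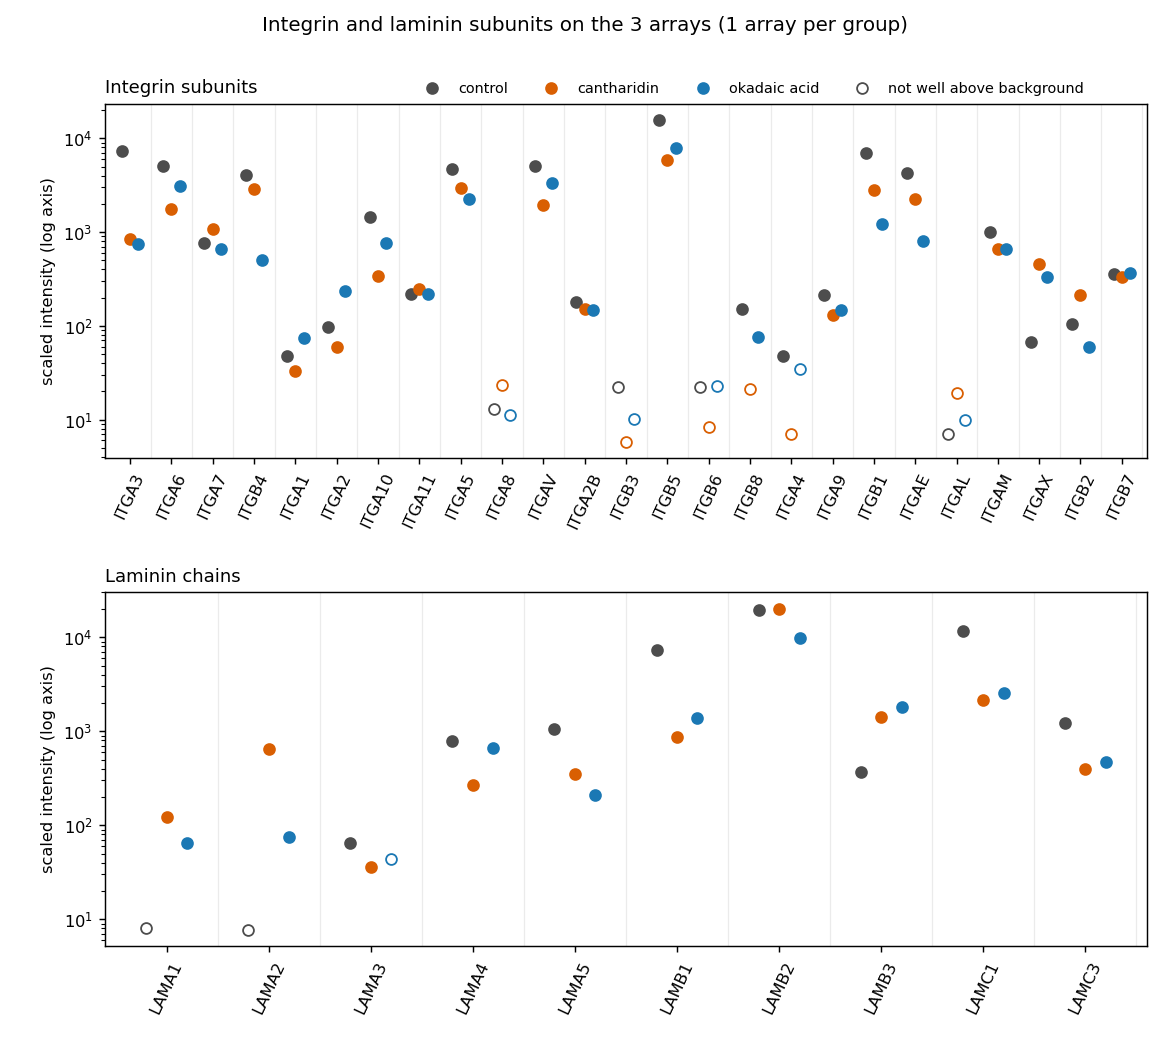
Scaled intensity (log axis) of the 25 integrin subunits (top) and 10 laminin chains (bottom) with 1 point for each of the 3 arrays (control, cantharidin, okadaic acid); open points were not well above background. ITGA3, LAMB1 and LAMC1 sit far below their control point after both agents, while ITGAX and LAMB3 sit above it.

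The integrin subunits that bind laminin were lower or within 1.5-fold. ITGA3, the alpha 3 subunit that pairs with beta 1 as a laminin receptor of epithelia, had a scaled intensity of 7293 in control, 836 under cantharidin and 738 under okadaic acid. It was thus 8.72-fold and 9.88-fold lower, and the treated arrays were 1.13-fold apart. ITGB4, the beta 4 subunit of hemidesmosomes, gave 4085, 2879 and 508 in the same order. Its okadaic acid value stood apart, 8.03-fold below control and 5.66-fold below the other agent, whereas cantharidin was 1.42-fold below control, within the threshold.

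ITGA6, which pairs with beta 4 or beta 1, showed the other order, with 5020 in control, 1764 under cantharidin and 3092 under okadaic acid. It was 2.85-fold lower after cantharidin and 1.62-fold after okadaic acid, and a fainter probe of the gene (535, 198 and 236) was 2.71-fold and 2.27-fold lower. Okadaic acid was 1.75-fold above cantharidin on the brighter probe but 1.19-fold, within the threshold, on the fainter. So the alpha 6 and beta 4 partners changed by unequal amounts under each agent. ITGA7, the laminin receptor best known in muscle, measured 768, 1082 and 653. Neither agent moved it past the threshold against control (1.41-fold and 1.18-fold), though okadaic acid was 1.66-fold below cantharidin.

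ITGB1, the beta 1 subunit shared by most matrix receptors, was lower under both agents, and more so under okadaic acid. Its probe is spotted 10 times, and 9 spots were usable per array: they lay between 6708 and 7391 in control, 2660 and 2973 with cantharidin, and 1125 and 1295 with okadaic acid. No spot of one array reached the range of another. The means of 6998, 2810 and 1214 give a value 2.49-fold lower with cantharidin and 5.76-fold lower with okadaic acid, the latter 2.31-fold below the former.

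Of the 4 collagen-binding alpha subunits, 3 were higher and 0 lower under okadaic acid than under cantharidin, where 29.5% and 22.3% of all genes were, and 4 genes are too few to set against that share. ITGA2, which forms the collagen receptor of epithelia and platelets, had 98.2 in control, 59.2 under cantharidin and 238 under okadaic acid. Control lay between the treated arrays: cantharidin was 1.66-fold lower, okadaic acid 2.42-fold higher, and the agents were 4.02-fold apart. With another background correction (normexp) the cantharidin log2 difference was -0.30, within the threshold. The offset of 50 added there shrinks the differences of signals this dim, so part of that loss is built in. These signals stood 2.81, 2.46 and 4.89 times above the faintest signal passed on their arrays.

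ITGA1, another collagen receptor subunit, lies next to ITGA2 on chromosome 5 in RefSeq with 1 coding gene between them. It measured 47.8, 32.8 and 75, a similarly ordered but dim set of 1.37, 1.36 and 1.54 times the lowest signal above background. Cantharidin was 1.46-fold lower, within the threshold, and okadaic acid 1.57-fold higher. With normexp correction its log2 difference between the agents was 0.39 and that of okadaic acid from control 0.18, both within the threshold. ITGA10, a collagen receptor subunit of cartilage, fell in both: 1433 in control, 340 under cantharidin (4.22-fold lower) and 770 under okadaic acid (1.86-fold lower). ITGA11, a collagen receptor subunit of fibroblasts, stayed within 1.5-fold in all 3 comparisons at 219, 246 and 217.

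Of the 8 subunits of receptors for fibronectin and other RGD ligands, 5 could be compared, and 4 of the 5 were lower under each agent. Of all genes compared, 34.1% were lower under cantharidin and 28.8% under okadaic acid. The 5 genes are too few to set against these shares. ITGA5, the alpha subunit of the main fibronectin receptor, gave 4668 in control, 2968 under cantharidin and 2261 under okadaic acid, 1.57-fold and 2.06-fold lower. ITGB5, a partner of alpha V in binding vitronectin, gave 15662, 5877 and 7932, which is 2.66-fold and 1.97-fold lower. ITGAV, the alpha V subunit, is spotted 10 times, with spots from 4880 to 5218 in control, 1807 to 2079 under cantharidin and 3191 to 3450 under okadaic acid. The spot ranges did not overlap, and the means of 5038, 1927 and 3349 were 2.61-fold lower after cantharidin and 1.5-fold after okadaic acid, the last just past the threshold. Under okadaic acid, ITGAV was within the threshold in 5 of 10 alternatives.

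ITGB8, which pairs with alpha V and binds latent TGF-beta, had 150 in control, 21.0 under cantharidin, not well above background, and 75.9 under okadaic acid. It was at least 6.22-fold lower after cantharidin and 1.97-fold after okadaic acid, where the signal was 1.56 times the lowest above background. ITGA2B, the alpha subunit of the platelet fibrinogen receptor, stayed within the threshold at 179, 153 and 149. The platelet markers had a summed scaled intensity of 549 in control, 465 under cantharidin and 822 under okadaic acid. ITGB3, its platelet partner, was too dim to be called on each array, as were ITGA8, ITGB6 and, of the leukocyte subunits, ITGAL.

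ITGA4 and ITGA9, alpha subunits that bind fibronectin, VCAM1 or tenascin, were dim. ITGA4 was well above background in the control array alone, at 48.0, and was at least 1.99-fold lower under cantharidin (7.09) with no fold to be given under okadaic acid (34.6), where it was counted as within the threshold. Its other 2 probes were too dim on each array. ITGA9 gave 213, 131 and 149, 1.62-fold lower after cantharidin and 1.43-fold after okadaic acid, the latter within the threshold.

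The subunits named for leukocyte integrins did not move together. ITGAX, the CD11c subunit of macrophages and dendritic cells, had 66.6 in control, 459 under cantharidin and 332.02 under okadaic acid. Both treated arrays were above control, 6.89-fold and 4.99-fold, and the control signal was 1.90 times the lowest above background. ITGAM, the CD11b subunit whose gene adjoins ITGAX on chromosome 16, went the other way with 999, 660 and 658, 1.51-fold and 1.52-fold lower. Spots of ITGAM ran from 925 to 1080 in control, 517 to 824 under cantharidin and 492 to 796 under okadaic acid, so the treated spots lay below the control spots and overlapped each other.

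ITGB2, the beta subunit that ITGAX and ITGAM pair with, moved in opposite directions. Its spots lay between 89.5 and 157 in control, 192 and 229 with cantharidin, and 52.4 and 72.6 with okadaic acid, with no overlap between arrays. The means of 105, 215 and 59.7 were 2.05-fold higher with cantharidin and 1.75-fold lower with okadaic acid, and the agents were 3.60-fold apart. The okadaic acid signal was 1.23 times the lowest above background, and 7 of its 8 usable spots were well above background. That side of the pattern was within the threshold with normexp correction (-0.45) and with no scaling.

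ITGAE, the alpha subunit by which intraepithelial lymphocytes hold E-cadherin, gave 4278, 2246 and 807, 1.90-fold lower after cantharidin and 5.30-fold after okadaic acid. ITGB7, its partner, stayed within 1.5-fold at 358, 334 and 366. The leukocyte markers summed to 3456 in control, 2928 under cantharidin and 10247 under okadaic acid, of which CD14 made up 2535, 2023 and 9253. PTPRC (CD45), carried by nearly all leukocytes, gave 372, 289 and 339, CD53 was above background under cantharidin only, and CD48 and LCP2 were above background on no array. The part of these markers in the leukocyte integrin values was not tested.

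**Figure D2:**
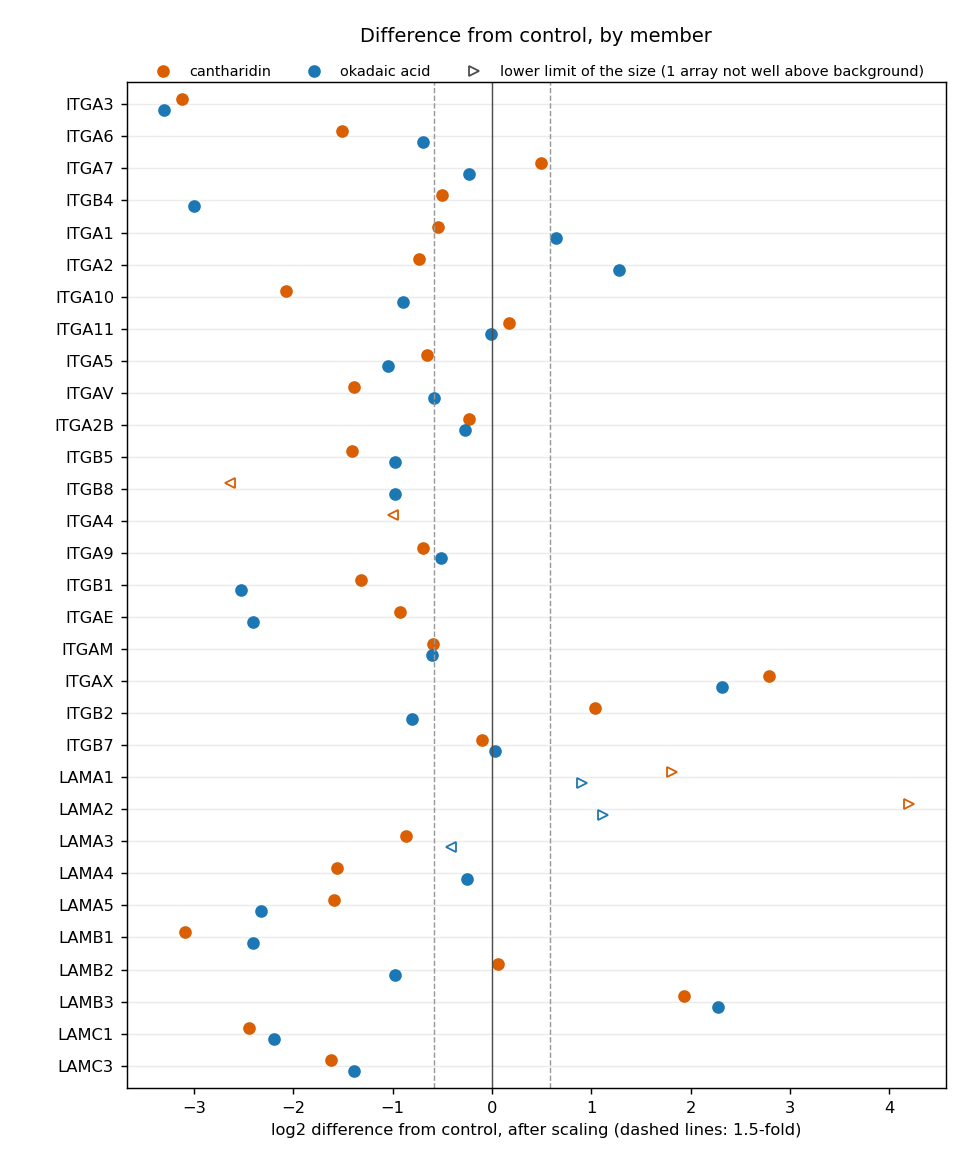
Log2 difference from control after scaling for the 31 integrin and laminin genes that could be compared, 1 point per agent, with dashed lines at 1.5-fold and open triangles for lower limits where 1 array was not well above background. Most points lie left of 0; ITGAX, LAMA1, LAMA2 and LAMB3 lie right of it under both agents, and ITGA4 has no okadaic acid point because neither fold nor bound could be given.

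The laminin chains went both ways. Of 10 chains, 6 were lower and 3 higher under cantharidin, and 5 were lower and 3 higher under okadaic acid, with median log2 differences of -1.22 and -0.77. The shares of all genes were 34.1% lower and 27.5% higher under cantharidin and 28.8% and 28.1% under okadaic acid, so the 3 of 10 higher were close to the background. With dim signals set to the lowest signal above background, the okadaic acid median was -0.70.

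The chains LAMB1 and LAMC1, the beta 1 and gamma 1 chains that form part of most laminin trimers, were among the genes with the largest differences. LAMB1 had 7380 in control, 863 under cantharidin and 1392 under okadaic acid, 8.56-fold and 5.30-fold lower, with the agents 1.61-fold apart. LAMC1 had 11744, 2147 and 2558, 5.47-fold and 4.59-fold lower. LAMA5, the alpha chain of the main laminin of mature epithelial basement membranes, gave 1047, 348 and 208, 3.01-fold and 5.03-fold lower. LAMC3, the gamma 3 chain, gave 1227, 399 and 466, 3.07-fold and 2.63-fold lower, and its other 2 probes were lower too, 5.44-fold and 4.63-fold on one, and 1.94-fold and at least 1.63-fold on the other. So each of these 4 chains was lower than control on both treated arrays.

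LAMB2, the beta 2 chain of vessel and neuromuscular basement membranes, separated the agents. It measured 19479 in control, 20247 under cantharidin and 9891 under okadaic acid. Cantharidin lay 1.04-fold from control, and okadaic acid was 1.97-fold lower. The second probe of the gene (3487, 2650 and 1283) had cantharidin 1.32-fold and okadaic acid 2.72-fold below control.

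The beta 3 and alpha 3 chains of the epithelial laminin of hemidesmosomes did not move together. LAMB3, its beta 3 chain, had 371 in control, 1412 under cantharidin and 1802 under okadaic acid, 3.81-fold and 4.86-fold higher. LAMA3, its alpha 3 chain, was dim, with 64.9, 35.6 and 44.2, the last not well above background. It was 1.82-fold lower after cantharidin and at least 1.34-fold after okadaic acid, the latter counted as within the threshold. Its signals were 1.86 and 1.48 times the lowest signal above background in control and cantharidin. With normexp correction its cantharidin log2 difference was -0.42, within the threshold.

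LAMA1 and LAMA2 were not well above background in control and were above it after treatment. LAMA2, the alpha chain of muscle laminin, had 7.64 in control, 641 under cantharidin and 76.0 under okadaic acid. It was at least 18.3-fold higher with cantharidin, at least 2.17-fold higher with okadaic acid, and the agents were 8.44-fold apart. LAMA1, the alpha chain of embryonic laminin, had 8.15, 123 and 65.6, with a rise of at least 3.52-fold and at least 1.88-fold. A second LAMA1 probe of the same transcript (13.5, 6.32 and 10.3) was too dim on each array, so the change in LAMA1 rests on 1 probe.

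LAMA4, the alpha chain of vessel walls and mesenchyme, depended on the probe. Its brightest probe gave 795 in control, 268 under cantharidin and 665 under okadaic acid, 2.96-fold lower and 1.19-fold lower, the second within the threshold. A pair of fainter probes were also lower, one at least 2.84-fold and at least 1.77-fold, the other 2.12-fold and at least 1.76-fold. The fourth, at 51.0, 56.2 and 113, was 1.1-fold and 2.21-fold higher. The 4 probes match 3 RefSeq transcripts. Endothelial markers summed to 2326 in control, 2757 under cantharidin and 1468 under okadaic acid, and fibroblast markers to 664, 499 and 151. In control, VWF (1814) and COL1A1 (528) weighed most in these sums. Under okadaic acid, only 1 of the 5 fibroblast markers was well above background, so that sum holds much dim signal. Single markers moved apart within both sums. Among endothelial markers, ROBO4 (57.6, 1304 and 126) was 22.6-fold higher and VWF 1.72-fold lower under cantharidin. Among fibroblast markers, PDGFRB was at least 11.8-fold higher and COL1A1 at least 21.9-fold lower under cantharidin. The part of these in the LAMA2 and LAMA4 values was not tested.

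**Figure D3:**
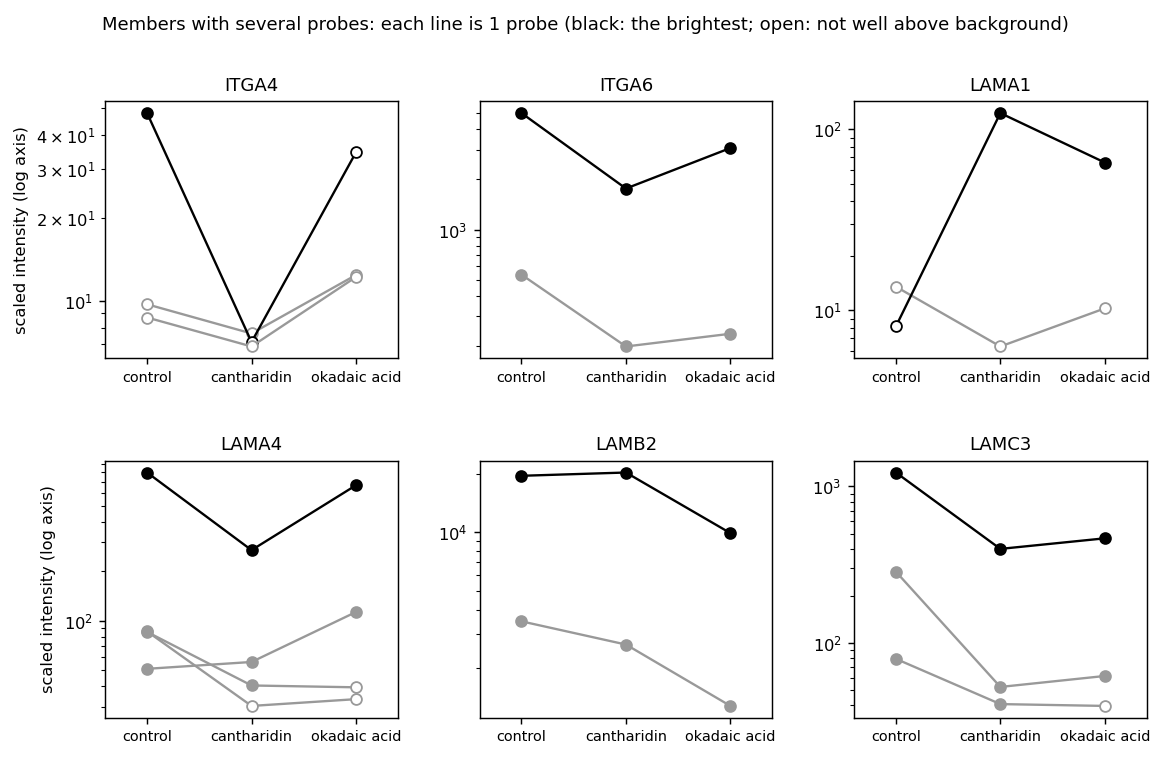
Scaled intensity (log axis, its range differing between panels) of every probe of the 6 genes with several probes on the 3 arrays; each line is 1 probe, black the brightest, with open points not well above background. The probes of ITGA6 and LAMC3 lie below control on both treated arrays, while those of LAMA1 and LAMA4 part.

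The other genes of the adhesion system were read from 4 lists, whose share of calls stands beside the background given above. Of 29 focal adhesion proteins, 10 were higher and 5 lower under cantharidin and 7 higher and 8 lower under okadaic acid, with medians of 0.10 and -0.26. TNS3 (tensin 3), which links integrin tails to actin, had 1429 in control, 53.0 under cantharidin and 139 under okadaic acid, 27.0-fold and 10.3-fold lower. PARVB (beta-parvin), a partner of integrin-linked kinase, had 2396, 618 and 154, 3.88-fold and 15.6-fold lower. PXN (paxillin), a focal adhesion scaffold, had 32700, 54872 and 21015, 1.68-fold higher and 1.56-fold lower. Its second probe did not share the cantharidin direction, with log2 differences of -0.32 and -0.73.

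Basement membrane proteins other than laminins were mostly lower: 10 of 12 under cantharidin and 9 of 12 under okadaic acid, with 2 and 0 higher and medians of -1.37 and -1.21. By the bounds, 8 were lower under okadaic acid, since COL4A4 was dim there and allowed no fold. NID1 (nidogen 1), which joins laminin to collagen IV, had 12398 in control, 1890 under cantharidin and 1690 under okadaic acid, 6.56-fold and 7.34-fold lower. FBLN1 (fibulin 1) had 11654, 1314 and 2557, 8.87-fold and 4.56-fold lower on its brightest probe, with log2 differences from -1.95 to -0.70 on its other 2.

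Of 9 hemidesmosome genes and laminin partners, 6 were lower and 2 higher under cantharidin and 5 lower and 2 higher under okadaic acid. By the bounds, 4 were lower under okadaic acid, since BCAM was dim there and allowed no fold. The medians were -0.95 and -0.95, the second being -0.13 with dim signals set to the lowest signal above background. NTN4 (netrin 4), a secreted protein that binds laminin gamma chains, had 3882, 144 and 513, 27.0-fold and 7.57-fold lower. SDC1 (syndecan 1), a heparan sulfate co-receptor for laminin, had 4607, 841 and 2005, 5.48-fold and 2.30-fold lower.

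Of 18 other integrin ligands, 7 were lower and 3 higher under cantharidin and 4 lower and 4 higher under okadaic acid, with medians of -0.33 and 0.04. By the bounds, 3 were lower under okadaic acid, since FGB was at least 1.31-fold lower. TGFBI, a matrix protein bound by several integrins, had 77095, 11077 and 16296, 6.96-fold and 4.73-fold lower. CCN1, a secreted ligand of alpha V integrins, had 21354 in control, 5979 under cantharidin and 40714 under okadaic acid, 3.57-fold lower and 1.91-fold higher. The genes named from these lists are those with the largest differences in each, so their size says nothing of the lists as wholes.

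**Figure D4:**
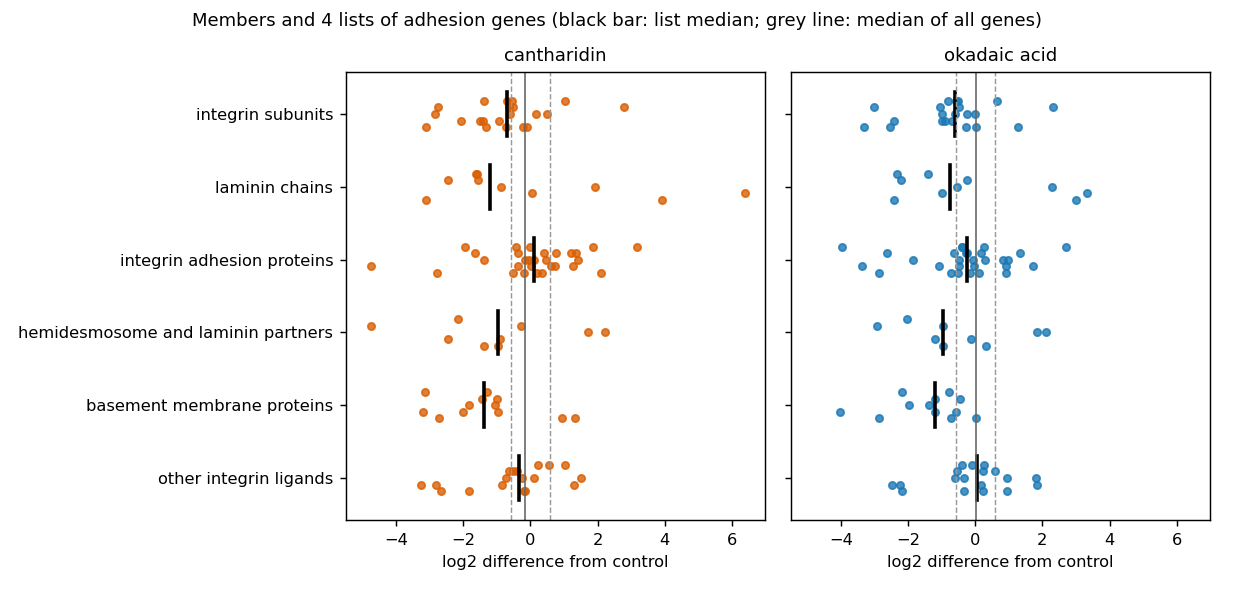
Log2 difference from control under cantharidin (left) and okadaic acid (right) for the integrin subunits, the laminin chains and the 4 other lists; each point is 1 gene, the black bar is the list median and the grey line the median of all genes, with signals not well above background plotted as measured. Basement membrane proteins have the lowest median in both panels, -1.37 and -1.21.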

How the data were processed

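RNA of 3 PANC-1 cultures was hybridised to 1-colour (Cy3) Agilent arrays. Per the file headers, the deposited intensity values are processed signals of Agilent Feature Extraction 11.0.1.1, background-subtracted and detrended within each array but not scaled between arrays. A second table deposited by the authors holds log2 values, already normalized, of 30923 probes, whose making is not given in the sources used here; it served as an alternative. Outlier-flagged spots were left out, spots of a probe were averaged on the log2 scale, and each array was divided by its 75th percentile. No pseudocount was added. Probes were named through RefSeq accessions (25705 of 34041 probes, 19699 genes), and each gene was represented by its brightest probe over the 3 arrays. A gene entered a comparison where at least 1 of its 2 arrays had it well above background, and was called at 1.5-fold. The arrays had 24768, 25103 and 23071 probes well above background (control, cantharidin, okadaic acid), 75th percentiles of 784, 713 and 936, and 0 saturated member spots. Their number, 1 per group, limits the precision, and no test was made.

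The members, the lists of other genes, the markers and the motifs were chosen with earlier results of these data known. All members are named. 1 gene of the lists is not reported here and was left out of their counts. Of the other lists, at most 2 genes each were named, by the largest difference under either agent among genes well above background on all 3 arrays, plus those past 1.5-fold in opposite directions. The alternatives were normexp background correction (limma 3.58.1 in R 4.3.3, offset 50), other scalings, other filters on dim probes, the deposited table, a 2-fold threshold and the median over probes. The normexp run started from median spot signals, and its added offset shrinks the differences of dim signals. The scripts (Python 3.11.15, pandas 2.3.3) were tested on simulated data. Promoters are those of the RefSeq table for GRCh38.p14, while the probe annotation of the files is hg19, so no gene coordinates other than those of the promoters are given.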

Additional observations from a re-analysis of the deposited data

Results flagged for a closer look

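ITGA2 and ITGB2 were past 1.5-fold in opposite directions under the 2 agents. ITGA2 differed from control by a log2 of -0.73 under cantharidin and 1.28 under okadaic acid, and ITGB2 by 1.04 and -0.81. With normexp background correction, the ITGA2 value under cantharidin was -0.30 and the ITGB2 value under okadaic acid was -0.45, both within the threshold, and the latter was within it with no scaling too. The difference between the agents was not tested, since each group is 1 array, and both genes were measured against the same control array.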

How the results depend on the processing

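No called member value reversed under the alternatives run. Of the member values recomputed, 774 moved by less than the spot noise and 132 by more. Part of the 774 could neither move nor reverse. The filters on dim probes reused the same values. Setting dim signals to the lowest signal above background left values measured on both arrays as they were. The median over probes could change only the genes with several probes, 6 of 35. Calls were unchanged under every alternative other than the 2-fold threshold for 23 of 31 genes under cantharidin, 22 of 31 under okadaic acid and 17 of 30 between the agents. With no scaling, 13 genes in place of 8 were higher and 6 in place of 9 lower under okadaic acid than cantharidin, 68.4% of calls being higher in place of 47.1%, while the median of all genes moved from 0.13 to 0.52 in that comparison and, against control, to -0.30 for cantharidin and 0.26 for okadaic acid. With scaling to the median, the okadaic acid median of all genes was -0.11. At a 2-fold threshold, 9 genes in place of 17 were lower under okadaic acid and 5 in place of 8 were higher under okadaic acid than cantharidin. With only probes well above background on all 3 arrays, 3 genes in place of 5 were higher under cantharidin, since LAMA1 and LAMA2 were dim in control. ITGA2 under cantharidin was within the threshold with normexp correction (-0.30), as was ITGB2 under okadaic acid with normexp or no scaling (lowest size -0.45). LAMA4 under okadaic acid passed it with the median over detected probes (-0.69). ITGA1 (0.18 with normexp), ITGAM and ITGAV under okadaic acid also lost their call under some alternatives. The cause of the other changes was not tested. No paired analysis was possible because each group has 1 array. With 1 array a group, the spread between cultures is unknown.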
